A study of Mus musculus with 8 samples.

Results

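The 9 fat cell genes described here were *Adipoq*, *Lep*, *Retn*, *Cfd*, *Plin1*, *Cidec*, *Fabp4*, *Lpl* and *Ucp1*, looked up by symbol among the 45583 gene symbols of the count table. They served to judge whether white or brown fat was attached to ovaries taken for RNA sequencing. The genes were chosen by name as products of fat cells, with the levels of some of them in these libraries already known, so that their values are given as a description, and where a call over all genes takes in a member, nothing is read from it. All 9 had reads, and 7 of them passed the filter on low counts that left 16601 genes for testing, while *Lep* and *Ucp1* did not.

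The libraries came from female C57/Bl6 mice of 3 weeks, 4 of them labelled WT and 4 labelled GOAT KO. GOAT, short for ghrelin-O-acyltransferase, attaches the acyl group to the hormone ghrelin, and the knockout removes its gene, *Mboat4*, from the whole body. Both genotypes were bred as littermates from heterozygous parents, and each library held the RNA of 1 whole frozen ovary of 1 mouse, so that every cell type of the ovary and any tissue left on it was read together. Fat lies around the mouse ovary and oviduct, and the sources used here do not say how it was trimmed.

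White fat cells store triglyceride in 1 large droplet and secrete protein hormones, the adipokines, among them adiponectin, leptin and, in mice, resistin. Brown fat cells hold many small droplets and burn fatty acids for heat through uncoupling protein 1, the product of *Ucp1*. Some genes of fat cells are not theirs alone, since lipoprotein lipase is made in many tissues, *Fabp4* is read in endothelium and macrophages, and steroid-making cells of the ovary carry lipid droplets.

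The libraries held 16147216 to 19481798 reads counted on genes, and 85.92% to 87.02% of their reads were mapped. *Mboat4* had 1, 1, 1 and 3 counts in the libraries labelled WT and 5, 7, 7 and 8 in those labelled GOAT KO, so that the knocked-out gene's symbol had more counts under the knockout label. No library had a read across an intron of *Mboat4*, and 135 bases of its exons overlap *Gm39158* on the opposite strand, so the counts do not show which transcript was read and are no check of the labels in either direction. Every direction below is that of the labels. GOAT KO 1139 lay apart from the rest, at 1.21 on the first dimension of a scaling plot against -0.47 to 0.17 for the other 7 libraries, and with the 58 tested fat genes of the members and lists left out it lay at 0.80 against -0.66 to 0.51. The ovary markers, such as *Inha* and *Amh* of granulosa cells, summed to 4759 to 6427 CPM (read counts per gene scaled to equal library totals) in the 8 libraries, and none of the 13 was at 0 throughout.

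Most reads of 6 of the genes came from 1 library, GOAT KO 1139. It held 90.6% of the *Adipoq* reads of the series, 89.9% of the *Cfd* reads, 89.5% of the *Retn* reads, 86.7% of the *Lep* reads, 84.7% of the *Cidec* reads and 83.3% of the *Fabp4* reads. It held 27.6% of the *Plin1* reads and 22.7% of the *Lpl* reads, and none of the 6 *Ucp1* reads. In bulk RNA, more fat cells and more RNA per fat cell cannot be told apart.

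The promoters of the members are shown as RefSeq gives them for GRCm38.p6, 250 bases before to 50 after the annotated start, read along the gene's own strand. A window was found for 7 of the 9 members, and *Cidec* had 2 of them. *Adipoq* and *Cfd* are printed as a pair of members whose levels varied together, *Plin1* as one that did not follow them, and *Lep* for the motif in its window. Capitals mark the letters TTNNGCAA on either strand, a short form of the site bound by C/EBP factors, which act in fat cell formation.
Adipoq (chr16:23146286-23146585, + strand): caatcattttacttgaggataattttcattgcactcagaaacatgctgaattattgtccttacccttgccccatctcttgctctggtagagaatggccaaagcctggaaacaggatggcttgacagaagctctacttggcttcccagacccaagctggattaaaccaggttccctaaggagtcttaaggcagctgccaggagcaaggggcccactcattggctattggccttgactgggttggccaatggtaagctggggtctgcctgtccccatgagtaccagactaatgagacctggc
Cfd (chr10:79890603-79890902, + strand): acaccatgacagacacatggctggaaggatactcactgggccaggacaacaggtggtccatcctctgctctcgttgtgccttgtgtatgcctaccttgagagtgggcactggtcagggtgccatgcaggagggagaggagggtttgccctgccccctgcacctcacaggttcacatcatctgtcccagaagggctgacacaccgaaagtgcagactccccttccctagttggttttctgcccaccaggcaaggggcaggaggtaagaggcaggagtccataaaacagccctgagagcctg
Lep (chr6:29059971-29060270, + strand): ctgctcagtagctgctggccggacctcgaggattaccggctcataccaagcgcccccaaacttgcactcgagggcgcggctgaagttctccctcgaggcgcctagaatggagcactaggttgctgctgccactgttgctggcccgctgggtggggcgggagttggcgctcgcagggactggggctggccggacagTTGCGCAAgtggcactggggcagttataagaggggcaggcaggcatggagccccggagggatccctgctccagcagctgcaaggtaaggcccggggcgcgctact
Plin1 (chr7:79732727-79733026, - strand): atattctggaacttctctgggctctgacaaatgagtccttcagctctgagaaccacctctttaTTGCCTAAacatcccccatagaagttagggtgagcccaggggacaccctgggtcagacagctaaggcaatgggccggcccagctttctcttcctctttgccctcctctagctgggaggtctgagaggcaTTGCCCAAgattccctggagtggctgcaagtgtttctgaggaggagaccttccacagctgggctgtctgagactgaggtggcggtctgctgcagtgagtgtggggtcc

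The *Lep* window held TTGCGCAA with its first base at position -55 from the start, a palindrome that reads the same on both strands and that 0.183% of the 32851 RefSeq mouse windows of this length held. The *Plin1* window held 2 matches on the opposite strand, with first bases at -187 and -58. TTNNGCAA, which takes in TTGCGCAA, was present in 10.8% of all windows and also in 1 window of *Cidec*. AGGTCA, the short element of nuclear receptors, was present in 16.3% of windows and, among the members, in that of *Ucp1*. A direct repeat of AGGTCA with 1 base between its copies, the type of site bound by the fat cell regulator PPAR gamma, was present in 0.0396% of windows and TATAAA in 13.6%, and none of the 8 member windows held either on any strand. These are matches of letters in 1 window each and say nothing of which factor was bound.

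*Adipoq* encodes adiponectin, an adipokine made almost solely by fat cells (chromosome 16, 23146536 to 23158028, + strand of GRCm38). It had 0.990, 0.777, 0.548 and 2.67 CPM in WT 1118, 1119, 1120 and 1121, and 96.6, 2.99, 1.28 and 0.290 CPM in GOAT KO 1139, 1140, 1141 and 1146. The value of GOAT KO 1139 rested on 1616 reads, and its exact 95% Poisson interval of 91.9 to 101.4 CPM lay far above that of the next library, GOAT KO 1140, at 2.21 to 3.95 CPM. The other 7 libraries ranged over 10.3-fold with the labels mixed, since the lowest of all was GOAT KO 1146 with 5 reads.

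*Cfd* encodes adipsin, or complement factor D, a serine protease of the alternative complement pathway that is secreted by fat cells (chromosome 10, 79890853 to 79892655, + strand). Its levels were 1.61, 0.999, 0.713 and 4.41 CPM in the WT libraries and 162, 6.23, 2.91 and 0.522 CPM in the GOAT KO libraries, in the order given above. The libraries ranked exactly as for *Adipoq*, with GOAT KO 1139 at 26.0 times the next library.

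*Retn* encodes resistin, which in mice is a product of white fat cells (chromosome 8, 3655770 to 3660110, + strand). It reached 0.309, 0.388, 0.219 and 0.980 CPM in the WT libraries and 38.3, 1.71, 0.614 and 0.058 CPM in the GOAT KO libraries. GOAT KO 1139 stood at 22.4 times the next library, GOAT KO 1140, and GOAT KO 1146 had a single read.

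*Lep* encodes leptin, the satiety hormone of fat (chromosome 6, 29060220 to 29073877, + strand). It was close to the limit of detection, with 1, 3, 0 and 6 reads in the WT libraries and 91, 3, 1 and 0 reads in the GOAT KO libraries. The 5.44 CPM of GOAT KO 1139 had an interval of 4.38 to 6.68, against 0.120 to 0.711 CPM for WT 1121, the next library. The libraries without a *Lep* read, WT 1120 and GOAT KO 1146, were also the lowest 2 for *Adipoq*, and a count of 0 there allows up to 0.164 and 0.174 CPM.

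*Cidec* encodes a protein that lets lipid droplets merge into the large droplet of the white fat cell (chromosome 6, 113424634 to 113435760, - strand). Its levels were 0.557, 0.610, 0.329 and 1.96 CPM in the WT libraries and 31.4, 1.16, 0.460 and 0.290 CPM in the GOAT KO libraries. GOAT KO 1139 lay 16.0 times above the next library, here WT 1121.

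*Plin1* encodes perilipin 1, which coats the droplet and controls access of lipases to it (chromosome 7, 79720218 to 79732903, - strand). It had 5.44, 7.33, 13.3 and 10.6 CPM in the WT libraries and 31.3, 11.4, 11.5 and 17.5 CPM in the GOAT KO libraries. GOAT KO 1139 was again the highest, but by 1.78 times over GOAT KO 1146, the library that was lowest for *Adipoq*. WT 1120, among the lowest for every adipokine, had the highest *Plin1* level of its group and overlapped the GOAT KO group.

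*Fabp4* encodes the fatty acid binding protein of fat cells, also known as aP2 (chromosome 3, 10204088 to 10208576, - strand). The WT libraries had 6.37, 6.10, 4.82 and 11.8 CPM, and the GOAT KO libraries 286, 14.3, 4.96 and 6.62 CPM. The value of GOAT KO 1139 was 20.0 times that of GOAT KO 1140, and the other 7 libraries spanned 2.97-fold.

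*Lpl* encodes lipoprotein lipase, which frees fatty acids from circulating lipoproteins (chromosome 8, 68880491 to 68907448, + strand). It was abundant everywhere, with 194, 199, 174 and 202 CPM in the WT libraries and 426, 206, 201 and 193 CPM in the GOAT KO libraries. The 7 libraries other than GOAT KO 1139 spanned 1.18-fold, and that library stood 2.07 times above the highest of them.

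*Ucp1*, the brown fat gene (chromosome 8, 83290352 to 83298452, + strand), had 1, 2, 0 and 0 reads in the WT libraries and 0, 1, 1 and 1 reads in the GOAT KO libraries. In GOAT KO 1139, where the white fat genes peaked, the count of 0 allows up to 0.179 CPM. No library held more *Ucp1* than the 3 reads that a count of 0 allows, so a difference between the groups was not detectable at this depth.

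**Figure D1:**
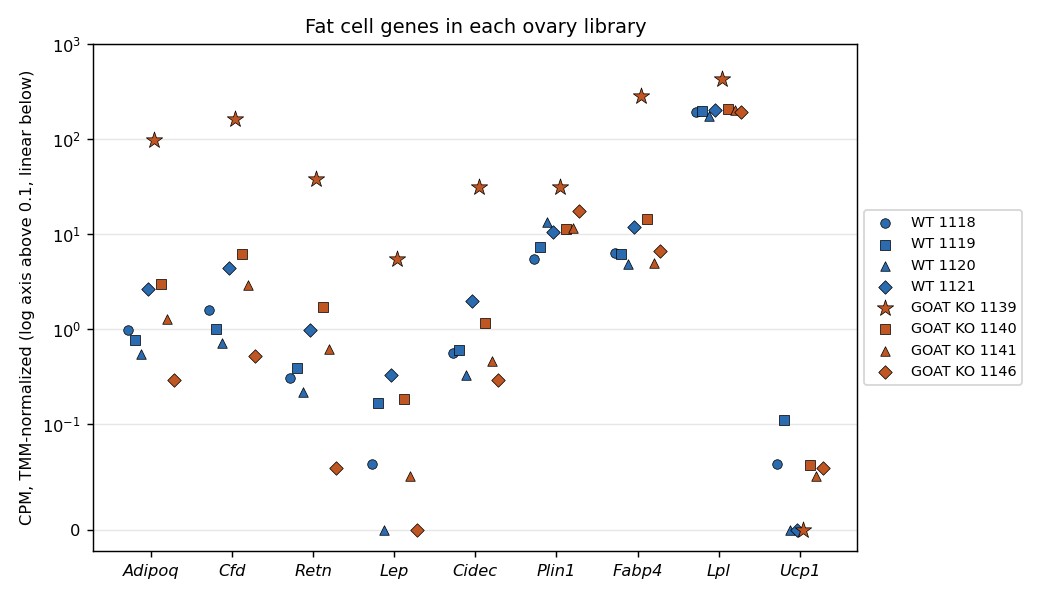
CPM (TMM-normalized, log axis above 0.1 and linear below) of the 9 fat cell genes in each of the 8 ovary libraries, with 1 point per library, blue for WT and orange for GOAT KO. The star, GOAT KO 1139, is the highest point for every gene except *Ucp1*, where it lies at 0, and the other 7 libraries of both labels overlap for each gene.

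Reads across splice junctions, counted separately from the gene counts, were again most frequent in GOAT KO 1139. In GOAT KO 1139, 82 reads crossed introns of *Adipoq*, 139 those of *Retn*, 536 those of *Cfd*, 69 those of *Cidec* and 1366 those of *Fabp4*. The highest of the other 7 libraries had 6, 5, 18, 5 and 59 such reads. For *Plin1* the numbers were 67 and 43, and for *Lpl* 903 and 580, while no library had a read across an intron of *Lep* or *Ucp1*. The exons of the 9 members overlap those of no other annotated gene, so the reads were of spliced transcripts of these genes where junctions were crossed.

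Divided by exon length, the levels of the members differed in order between GOAT KO 1139 and the other libraries. In RPKM, the CPM divided by the kilobases of exon, the median level over the other 7 libraries was 48.3 for *Lpl*, 7.11 for *Fabp4*, 2.44 for *Plin1*, 1.74 for *Cfd*, 0.717 for *Adipoq*, 0.300 for *Cidec*, 0.246 for *Retn*, 0.0355 for *Ucp1* and 0.0184 for *Lep*. Over those 7 libraries the range of *Lpl* (42.3 to 50.0 RPKM) lay above that of *Fabp4* (5.38 to 16.0), which lay above that of *Plin1* (1.17 to 3.77). From *Plin1* downwards the ranges of neighbouring genes overlapped. In GOAT KO 1139 the order by RPKM was *Fabp4* with 319.7, *Cfd* with 176, *Lpl* with 104, *Adipoq* with 69.9, *Retn* with 24.3, *Cidec* with 16.9, *Plin1* with 6.72, *Lep* with 1.62 and *Ucp1* with 0. *Plin1* went from the third place to the seventh, behind the adipokines *Cfd*, *Adipoq* and *Retn*.

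The ratios of reads between the adipokine genes varied far less over the libraries than their levels did. In GOAT KO 1139 there were 1.68 *Cfd* reads for each *Adipoq* read, with an exact 95% interval of 1.58 to 1.78. In the other 7 libraries this ratio ran from 1.29 in WT 1119 to 2.28 in GOAT KO 1141, and the interval of each took in 1.68. The ratio of *Retn* to *Adipoq* was 0.397 in GOAT KO 1139 and 0.200 to 0.571 elsewhere, again with 7 of 7 intervals taking in the value of GOAT KO 1139. The ratio of *Lep* to *Adipoq* was 0.0563 and likewise fell in 7 of 7 intervals. The ratio of *Cidec* to *Adipoq* was 0.325 in GOAT KO 1139 and 0.360 to 1.00 elsewhere, and 1 interval of 7, that of WT 1121 with 0.464 to 1.15, lay above it. With as few as 5 *Adipoq* reads in GOAT KO 1146, the intervals are wide and would not show a modest difference. They cover counting error only.

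**Figure D2:**
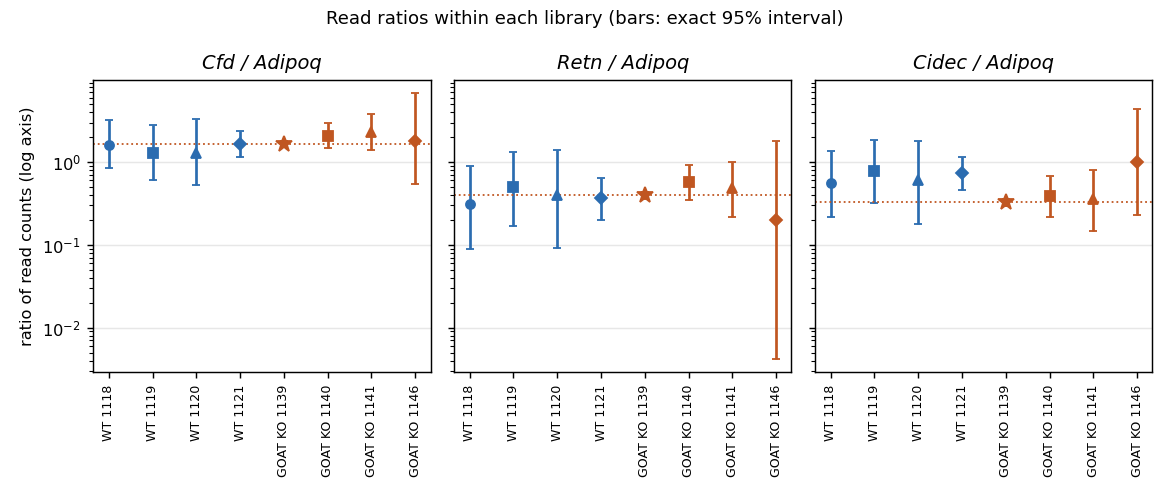
Reads of *Cfd*, *Retn* and *Cidec* per *Adipoq* read in each library (log axis), with exact 95% intervals as bars and a dotted line at the value of GOAT KO 1139 (1.68, 0.397 and 0.325). Every interval in the first and the second panel crosses the line, and in the third that of WT 1121 lies above it.

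Across the 7 libraries without GOAT KO 1139, the log2 level of *Adipoq* went with those of *Cfd* (Pearson r = 0.98) and *Retn* (r = 0.98) and with *Cidec* (r = 0.90), less with *Fabp4* (r = 0.75) and *Lpl* (r = 0.65), while the coefficient with *Plin1* was -0.26. By rank the order was another, with Spearman's rho of 0.93 for *Lpl*, 0.82 for *Cidec*, 0.54 for *Fabp4* and -0.43 for *Plin1*. These 7 points share their libraries with all values above, and the coefficients describe them only. Over the median of the other 7 libraries, GOAT KO 1139 held 280.0 CPM more of *Fabp4*, 227 CPM more of *Lpl*, 160.3 CPM more of *Cfd*, 95.6 CPM more of *Adipoq* and 19.9 CPM more of *Plin1*. This excess made up 97.8% of the *Fabp4* level in that library, 99.0% of those of *Cfd* and *Adipoq*, 63.7% of that of *Plin1* and 53.3% of that of *Lpl*.

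Among the 2458 genes that spanned at least 1 on the log2 scale, the 10 most like *Adipoq* over all 8 libraries were *Retn* (r = 0.995), *Cfd* (r = 0.994), *Hspa1a*, *Lgals12*, *Car3*, *Cidec*, *Cyp2e1*, *A530016L24Rik*, *Thrsp* and *Fabp4* (r = 0.964). Over 8 libraries these coefficients rest mostly on GOAT KO 1139. Without it, *Cyp2e1*, a cytochrome P450 best known from liver, still went with *Adipoq* (r = 0.95), as did *Hspa1a*, a heat shock protein gene (r = 0.94), *Car3*, the carbonic anhydrase of fat and muscle (r = 0.92), and *Lgals12*, a galectin of fat cells (r = 0.91). *Cyp2e1* had 18.8 CPM in GOAT KO 1139 and 0.055 to 1.28 elsewhere, and *Hspa1a* 5.68 against 2.38 to 3.30.

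The 10 genes most like *Fabp4* over 8 libraries were led by *Car5b* (r = 0.99), *Cidec* (r = 0.98), *Scd1* (r = 0.98) and *Lpl* (r = 0.97), followed by *Thrsp*, *Hp*, *Pnpla3*, *Adipoq*, *Acsl1* and *Fgf10*. Those most like *Lpl* were *Pnpla3* (r = 0.98), *Thrsp*, *Acp5*, *Col5a3*, *Dpt*, *Fabp4*, *Car5b*, *Scd1*, *Slc36a2* and *Gsn*. Without GOAT KO 1139 the likeness to *Lpl* was 0.08 for *Scd1* and 0.18 for *Acp5*, and 0.83 for *Pnpla3*.

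With all 8 libraries, every white fat gene had a higher mean in the group labelled GOAT KO. Without GOAT KO 1139 most of that difference was gone or its sign turned for each of these genes except *Plin1*, which kept more of it. The log2 fold change of *Adipoq* was 4.30 with an SE of 1.22 over the 8 libraries and 0.25 with an SE of 0.51 without GOAT KO 1139. That of *Cfd* went from 4.44 (SE 1.19) to 0.71 (SE 0.52), that of *Retn* from 4.36 (SE 1.22) to 0.69 (SE 0.60) and that of *Fabp4* from 3.40 (SE 0.96) to 0.23 (SE 0.29). Those of *Cidec* and *Lep* changed sign, from 3.22 (SE 1.09) to -0.48 (SE 0.52) and from 3.23 (SE 1.24) to -0.85 (SE 0.99), the last of these on the 14 *Lep* reads of the other 7 libraries. *Lpl* went from 0.41 (SE 0.18) to 0.05 (SE 0.07). *Plin1* went from 0.95 (SE 0.29) to 0.54 (SE 0.22), and stood at 0.77 (SE 0.17) without WT 1120 as well. These are fits of edgeR without a filter, so that all members have a value.

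A gene was called here at an unadjusted p under 0.05 in edgeR's quasi-likelihood test together with a log2 fold change over 0.5 in size. Both thresholds are those of the study's methods, which do not say whether their p was adjusted. By this rule 278 of 16601 genes were called (1.67%), and 159 of them (0.958%) were higher in the libraries labelled GOAT KO. Of the 7 members tested, 6 were among the latter, namely *Adipoq*, *Retn*, *Cfd*, *Cidec*, *Fabp4* and *Plin1*. *Cidec* was no longer called without WT 1118, without WT 1119 or without WT 1120, and *Plin1* without WT 1118 or without WT 1119. With limma-voom *Plin1* alone was called, and the log2 fold changes were 1.58 (SE 1.57) for *Adipoq*, 1.62 (SE 1.64) for *Retn*, 2.0 (SE 1.66) for *Cfd*, 1.05 (SE 1.26) for *Cidec* and 1.42 (SE 1.14) for *Fabp4*. DESeq2 gave these 5 genes no p and called *Plin1*. Since earlier results of this comparison were known when the genes were chosen, nothing is read from that count. Without GOAT KO 1139, 329 of 16827 genes were called (1.96%), 169 of them higher (1.0%), and none of the 7 members. Without WT 1120 as well, 398 of 16641 genes were called (2.39%), 219 higher (1.32%) and 179 lower (1.08%), and *Plin1* was the one member among them. With Benjamini-Hochberg adjustment over all genes, 4 genes passed with 8 libraries (0.0241%) and 14 without GOAT KO 1139 (0.0832%), and no member was among them.

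**Figure D3:**
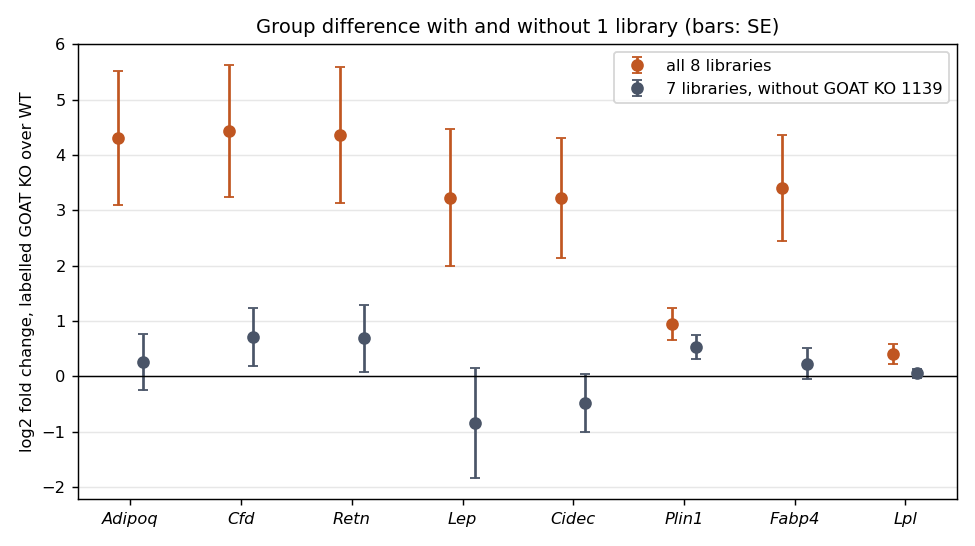
Fitted log2 fold change (labelled GOAT KO over WT) of 8 fat cell genes with its SE as bars, over all 8 libraries (orange) and over the 7 without GOAT KO 1139 (grey). The orange points of *Adipoq*, *Cfd*, *Retn*, *Lep*, *Cidec* and *Fabp4* lie between 3.22 and 4.44, and the grey points of all 8 genes lie between -0.85 and 0.71.

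Summed over the 9 members, the WT libraries had 213 ± 17.0 CPM (SD, n = 4) and the GOAT KO libraries 441 ± 425 CPM (SD, n = 4), a log2 ratio of 1.05. The ratio was 0.10 without GOAT KO 1139. *Lpl* made up most of the sum in the other libraries, and without *Lpl* and *Fabp4* the sum was 13.9 ± 5.40 CPM for WT, against 106 ± 173 CPM for GOAT KO (SD, n = 4 each). Without GOAT KO 1139 the 2 sums of the GOAT KO group were 228 ± 13.6 and 19.8 ± 3.54 CPM (SD, n = 3), and no test was made of them. The biological coefficient of variation of *Retn*, *Adipoq* and *Cfd* in the fit was 1.15, 1.15 and 1.13, at the 99.99th percentile or above of all tested genes, and that of *Lpl* was 0.222, at the 93.1st.

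Of 19 other genes known from fat cells, among them transporters, enzymes and receptors, 15 were tested and 4 were called higher in the libraries labelled GOAT KO, against a background of 0.958% of all genes. These were *Car3* with a log2 fold change of 3.35, *Hp*, the haptoglobin gene, with 2.53, *Slc36a2*, an amino acid transporter gene, with 2.15, and *Acvr1c*, which encodes the receptor ALK7, with 1.55 (adjusted p = 0.983 each, edgeR). The median over the 15 was 0.89, against -0.00035 over all genes tested, and 0.09 without GOAT KO 1139. *Acvr1c* alone was then called, with 0.65, where 1.0% of all genes were called higher. Of the listed genes 1 was called without WT 1118 (0.815% of all genes), 2 without WT 1119 (0.93%), 2 with DESeq2 (0.717%) and none with limma-voom (0.861%). Without GOAT KO 1140, 1141 or 1146, 9 to 13 of the 19 were called, where 0.979% to 1.11% of all genes were. Those took in *Sncg*, and without GOAT KO 1141 or 1146 also *Adrb3* and *Pck1*, which were not among the 15. All 15 were highest in GOAT KO 1139, a library that was the highest for 12.3% of all tested genes. *Cd36*, the fatty acid translocase and the most abundant of them at a mean of 103 CPM, had a log2 fold change of 0.19 (SE 0.18).

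The summed level of the 19 genes was 1058 CPM in GOAT KO 1139 and between 149 and 240 CPM in the other 7 libraries. *Car3* alone had 584 CPM there and 3.89 to 26.5 CPM elsewhere. Among the 4 listed genes below the filter, *Adrb3*, the beta-3 adrenergic receptor of fat cells, had 15.4 CPM in GOAT KO 1139 and 0.110 to 0.732 elsewhere, *Pck1* had 24.1 against 0.055 to 1.25, *Sncg* 8.19 against 0.309 to 0.666 and *Adig* 7.65 against 0.062 to 0.610.

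Of 18 genes of lipid synthesis, storage and release, all were tested and 2 were called higher, against 0.958% of all genes. They were *Scd1*, the stearoyl-CoA desaturase gene, with a log2 fold change of 2.62 and *Dgat2*, which makes triglyceride, with 1.26 (adjusted p = 0.983 each, edgeR). *Scd1* had 333 CPM in GOAT KO 1139 and 11.4 to 20.8 in the others. Without GOAT KO 1139 none of the 18 was called, and the median went from 0.17 to -0.04. None was called without WT 1118, without WT 1119, with DESeq2 or with limma-voom, and 1 was without WT 1120 or without WT 1121. The most abundant of them, *Acly* and *Fasn* of fatty acid synthesis, had log2 fold changes of 0.11 (SE 0.14) and 0.29 (SE 0.28). *Plin2*, the perilipin of most cells, had 82.0 CPM in GOAT KO 1139, within the 79.8 to 96.4 CPM of the rest.

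Of the 6 regulators of fat cell formation none was called, and the median log2 fold change was -0.06, or -0.35 without GOAT KO 1139. *Srebf1*, a regulator of fatty acid synthesis and the most abundant of them, had a log2 fold change of 0.12 (SE 0.09). *Pparg*, the nuclear receptor that directs fat cell formation, had 54.8 CPM in GOAT KO 1139, within the 39.5 to 63.3 CPM of the other libraries. *Cebpa* had 79.2 CPM there and 26.9 to 57.2 elsewhere, with WT 1120 the next highest.

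Of 18 genes of brown fat, 12 were tested and none was called, with a median log2 fold change of 0.03. GOAT KO 1139 was the highest library for 3 of the 12, against 12.3% of all tested genes. Their summed level of 239 CPM in that library lay within the 206 to 259 CPM of the others. *Pank1* and *Pdk4*, the most abundant of them, had log2 fold changes of 0.03 (SE 0.07) and -0.08 (SE 0.13). *Dio2*, the deiodinase that activates thyroid hormone in brown fat, had 19.5 CPM there and 14.97 to 22.4 elsewhere, and *Cox7a1* 2.15 against 0.818 to 2.22. *Elovl3*, *Zic1* and *Otop1* had at most 3 reads in every library. Looked at after its values were seen, *Cox8b*, a cytochrome oxidase subunit gene of muscle and brown fat, had 1.61 CPM (27 reads) in GOAT KO 1139 and at most 0.218 CPM elsewhere, and *Cidea* had 0.657 CPM (11 reads) against 0.166 to 0.603.

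The partners of lipoprotein lipase and the receptors of the adipokines were measured in the same libraries. Of the 12 genes that carry, activate, inhibit or resemble the lipase, 9 were tested and none was called, with a median of -0.06. *Gpihbp1*, which holds the enzyme on the capillary wall, had 5.68 CPM in GOAT KO 1139 and 1.61 to 2.61 elsewhere. *Gm6484*, the symbol under which the table lists the inhibitor gene *Angptl8*, had 24 reads in GOAT KO 1139 and at most 1 read in any other library. *Lrp1* and *Apoe*, the most abundant of them, had log2 fold changes of -0.06 (SE 0.09) and -0.31 (SE 0.11). Of 7 genes, receptors and binding proteins of adipokines listed together with the insulin receptor gene *Insr*, none was called, with a median of 0.04. The most abundant were *Cap1*, a receptor of resistin, at -0.05 (SE 0.08) and *Insr* at 0.06 (SE 0.10). Of 7 other fatty acid binding protein genes, 2 were tested and none was called. *Fabp5* had 31.6 CPM in GOAT KO 1139 and 21.9 to 29.4 elsewhere, and *Fabp7* had a log2 fold change of -0.01 (SE 0.42).

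Markers of other cells that could come with fat or with the dissection were measured in the same libraries. The 14 endothelial genes summed to 520.1 CPM in GOAT KO 1139 and 460.3 to 563 CPM in the others, and none was called, with a median of -0.06. The 9 genes of fat stroma summed to 420.1 CPM there and 341 to 434 elsewhere. Of the 8 tested, *Pi16*, a marker of fibroblasts around vessels, was called higher with a log2 fold change of 1.11, against 0.958% of all genes. Without GOAT KO 1139 it was also called, with 0.80, against 1.0% of all genes (adjusted p = 0.983 and 0.970, edgeR). It had 110 reads in all, with 0.388 to 0.599 CPM in the WT libraries and 0.767 to 1.73 CPM in the GOAT KO libraries. It passed the filter through the GOAT KO libraries, so nothing is read from its calls. *Dlk1* had no read. *Cd34* and *Pdgfra*, the most abundant of that list, had log2 fold changes of 0.27 (SE 0.10) and -0.05 (SE 0.11).

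The 12 macrophage genes summed to 141 CPM in GOAT KO 1139 and 134 to 212 CPM elsewhere. Of the 12, 3 were called lower in the libraries labelled GOAT KO, against 0.717% of all genes. They were *Lyz2* (log2 fold change -0.52), *Fcgr1* (-0.53) and *Ms4a7* (-0.69), with adjusted p = 0.983 each (edgeR, 8 libraries). Without GOAT KO 1139 the same 3 were called lower, against 0.951% of all genes (adjusted p = 0.773 to 0.970, edgeR). None of the 12 was called lower without WT 1121 or without GOAT KO 1146. *Mrc1* had -0.17 (SE 0.12).

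The 8 genes of surface epithelium and mesothelium, the lining that also covers fat pads, summed to 179 CPM in GOAT KO 1139 and 121 to 163 CPM elsewhere. Of the 8, 5 were highest in that library, which was the highest for 12.3% of all tested genes. *Upk3b* and *Msln* had log2 fold changes of 0.05 (SE 0.11) and 0.15 (SE 0.13). The 8 oviduct genes summed to 38.1 CPM there and 19.4 to 32.0 elsewhere. *Foxj1*, a gene of ciliated cells seen after the fact, had 3.23 CPM in GOAT KO 1139 and 0.307 to 1.59 in the others, while *Ovgp1*, the oviductal glycoprotein gene, had 5.80 CPM there and 9.58 in WT 1121. *Ovgp1* and *Tppp3* had log2 fold changes of -0.05 (SE 0.33) and -0.06 (SE 0.25). Skeletal muscle genes summed to 5.86 CPM in GOAT KO 1139 and 4.19 to 5.54 elsewhere, with *Mylpf* at 0.13 (SE 0.18) and *Myh2* at -0.39 (SE 0.28). Hemoglobin and heme genes of red blood cells summed to 160.2 CPM there and 146 to 590.4 elsewhere, with *Hbb-bs* at -0.37 (SE 0.42) and *Hba-a1* at -0.28 (SE 0.38). The part of these cell types in the levels of the fat cell genes was not tested. With all 8 libraries no gene of the mesothelial, oviduct, muscle, blood or ovary lists was called, with medians of 0.03, -0.03, 0.09, -0.28 and 0.06, and in the ovary list *Inha* had 0.09 (SE 0.09) and *Amh* -0.21 (SE 0.11).

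Single genes of the oviduct and ovary lists were called higher under other settings, in which 0.815% to 1.5% of all genes tested by edgeR were called higher. *Pax8*, a transcription factor gene of the oviduct epithelium that did not pass the filter with 8 libraries, was called without each WT library in turn, without GOAT KO 1146 and without the filter, with log2 fold changes of 1.21 to 1.85. It had 0.164 to 0.545 CPM in the WT libraries and 0.522 to 1.43 CPM in the GOAT KO libraries. In the fits with a library left out it passed the filter only through GOAT KO libraries, so nothing is read from its calls. *Fshr*, the receptor of follicle-stimulating hormone on granulosa cells, was called without GOAT KO 1139 (0.59), without GOAT KO 1140 (0.54), without WT 1120 (0.56) and without WT 1120 and GOAT KO 1139 together (0.68). The 3 ovary genes called without WT 1120, where 1.48% of all genes were called higher, were *Fshr*, *Cyp17a1* (1.91) and *Cyp11a1* (0.57). *Star* was called without GOAT KO 1140 (2.25), without GOAT KO 1141 (2.26), without GOAT KO 1146 (2.19) and without the filter (1.88). Outside these lists, *C3ar1* of the adipokine receptors was called lower without WT 1120 or GOAT KO 1140 and *Prdm16* of the brown fat list without GOAT KO 1146, while *Gm6484* was called higher without the filter.

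**Figure D4:**
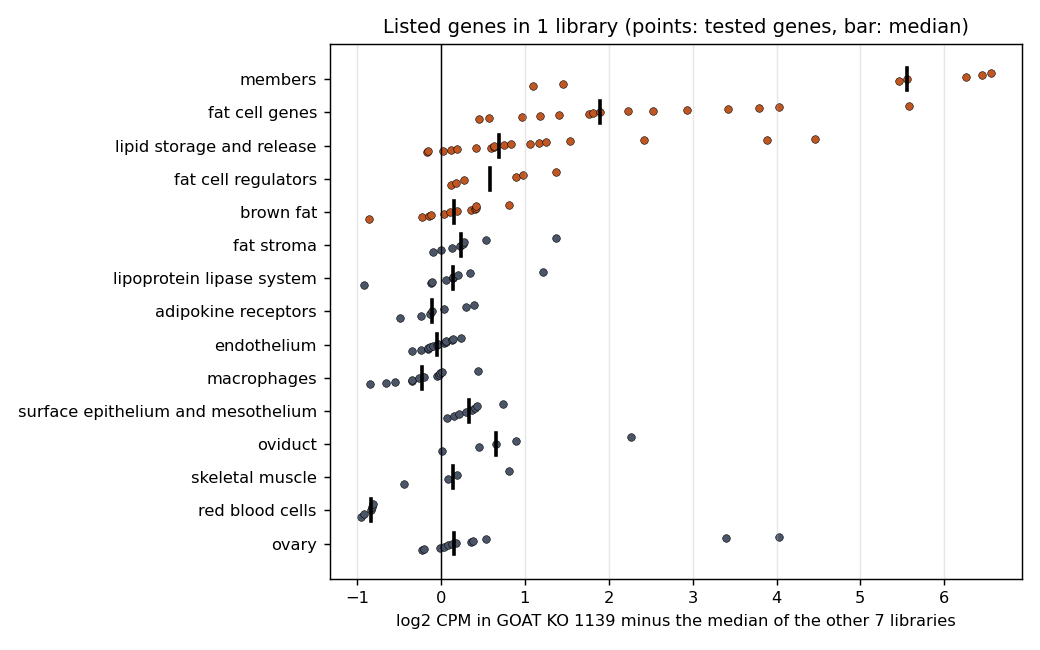
For each tested gene (point) of the members and of 14 lists, the log2 CPM in GOAT KO 1139 minus the median of the other 7 libraries, with the median of each list as a bar. The members and the fat cell genes extend farthest to the right, *Cfd* at 6.56 and *Car3* at 5.58, while the brown fat, endothelium and macrophage genes lie around 0 and the 2 ovary genes far from their list are *Star* and *Cyp17a1*.

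Set against the median of the other 7, GOAT KO 1139 had 163 genes at least 2-fold higher, or 0.982% of those tested, and 42 genes (0.253%) at least 4-fold higher. The first count took in 7 of the 7 tested members, 12 of the fat cell genes and 7 of the lipid genes, and the second 5 members, 7 fat cell genes and 3 lipid genes. The other 7 libraries had 28 to 89 genes at least 2-fold higher and 0 to 7 at least 4-fold higher when each was set against its own other 7. WT 1121 and GOAT KO 1140 each had 4 of the members at least 2-fold higher, and no other library had any. By size of this difference, *Cfd*, *Adipoq* and *Retn* were the first to the third of all genes in GOAT KO 1139, *Cidec* the fifth and *Fabp4* the sixth. The members were chosen with this library's levels known, so these ranks describe it and test nothing.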

How the data were processed

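Ovary RNA of 8 mice was sequenced by the authors as single reads of 50 bases, 1 library per mouse and 4 per label. Per the labels and the study's methods, reads were aligned to mm10 (GRCm38) with TopHat 2.0.14 and transcripts assembled with StringTie 1.0.4. The counting tool and its use of strand are not given in the sources used here. The authors deposited whole-number read counts per gene symbol, without normalization, read counts per splice junction, and mapping rates as percent of all reads. All libraries carry 1 flow cell and lane.

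Counts were compared with edgeR 4.0.16 (R 4.3.3, TMM scaling, quasi-likelihood test, labelled GOAT KO against WT). The filter on low counts, filterByExpr, asked for 0.566 CPM (10 counts at the median depth) in 4 libraries and for 15 counts over all. The p-values measure the spread between animals. The script was tested on simulated counts. Alternatives were DESeq2 1.42.0, limma-voom (limma 3.58.1), RLE size factors, no filter and libraries left out. The study's methods considered 1 library of each group an outlier, without naming them. WT 1120 and GOAT KO 1139, the highest of each label on the first scaling dimension, were left out together here as 1 alternative.

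CPM are TMM-normalized. Poisson and binomial intervals are exact at 95%, a count of 0 was read as up to 3 counts, and both cover counting error only. No pair of libraries of one label agreed within sampling noise (chi-square per gene 4.34 to 18.7). Positions are from GENCODE M21, and promoters from RefSeq. The members and lists were chosen with earlier results of these data known. Named beside the members are the called genes and, save for the endothelial list, the 2 most abundant of each list. Also named are the 10 genes most like *Adipoq*, *Fabp4* and *Lpl*, and other genes, chosen after their values were seen.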

Additional observations from a re-analysis of the deposited data

Results flagged for a closer look

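In 50 groups of 4 libraries, the highest or lowest library was checked for a gap to its nearest neighbour that, divided by the group's whole range, is above Dixon's 95% critical value for 4 samples. Such a gap was found in 14 groups. Chance flags about 1 independent group in 20, which is no measure for these 14, since most are members chosen with their levels known, or sums that hold fat genes, and all but 2 come from 1 library. In the libraries labelled GOAT KO the highest library, GOAT KO 1139 each time, lay apart for *Adipoq* (gap over range 0.972), *Lep* (0.966), *Retn* (0.957), *Cfd* (0.965), *Cidec* (0.972), *Fabp4* (0.967) and *Lpl* (0.944). *Plin1* was not among them. The same library lay apart in the summed level of the 9 members (0.970), of the other fat cell genes (0.931), of the genes of lipid storage and release (0.873) and of the markers of surface epithelium and mesothelium (0.860). For *Ucp1* it was the lowest of its group (0.838), a gap between 0 reads and 1 read. In the libraries labelled WT, the lowest library lay apart in the summed level of the partners of lipoprotein lipase (0.843) and of the other fatty acid binding proteins (0.905).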

How the results depend on the processing

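The count of 278 called genes was 691 without the filter on low counts, and 231 to 437 with 1 library left out, the latter without WT 1120. The median log2 fold change of the 9 members, 3.23 with all libraries, was 1.05 with limma-voom, 0.0072 without WT 1120 and GOAT KO 1139, and 0.25 to 4.03 with 1 library left out, the lowest without GOAT KO 1139. The log2 ratio of their summed CPM, 1.05, was 2.93 without *Lpl* and *Fabp4*, 0.054 without WT 1120 and GOAT KO 1139, and 0.097 to 1.27 with 1 left out, again lowest without GOAT KO 1139. The 4 fat cell genes called higher became 14 without the filter, where all 19 were tested and 1.5% of all genes were called higher. They became 2 with DESeq2 (0.717% of all genes), 0 with limma-voom (0.861%) and 1 without WT 1120 and GOAT KO 1139 (1.32%). With 1 library left out they were 1 to 13, namely 13 without GOAT KO 1141, 10 without GOAT KO 1146, 9 without GOAT KO 1140, 2 without WT 1119, and 1 without WT 1118 or GOAT KO 1139. In those fits 0.815% to 1.48% of all genes were called higher. The 2 genes of lipid storage and release called higher became 4 without the filter (1.5% of all genes), and 0 with DESeq2, limma-voom or without WT 1118, WT 1119 or GOAT KO 1139. The 3 macrophage genes called lower became 0 without WT 1121 or GOAT KO 1146. The cause was not tested. With 1 library left out, the log2 fold change ran from -0.85 to 4.06 for *Lep* and from -0.48 to 4.03 for *Cidec*, with the sign turned without GOAT KO 1139 alone, and signs turned for *Lep*, *Cidec* and *Adipoq* without WT 1120 as well (-1.26, -0.76 and -0.0024). DESeq2 gave no p for *Adipoq*, *Retn*, *Cfd*, *Cidec* and *Fabp4*, which stay without a call there, and limma-voom called *Plin1* alone of the members. Without the filter, where 1.5% of all genes were called higher, *Lep* was called higher too, while *Lpl* and *Ucp1* were not. Nothing is read from that call. *Lpl* was called without GOAT KO 1146 and under no other setting tried. The calls with 8 libraries and without GOAT KO 1139 shared 189 genes with 1 sign, 68.0% of the first list and 57.4% of the second. No paired analysis was possible because the libraries labelled WT and GOAT KO share no animal number. At this depth *Lep* and *Ucp1* rest on 105 and 6 reads in all, and 1 library of 8 carries most reads of *Adipoq*, *Cfd*, *Retn*, *Lep*, *Cidec* and *Fabp4*, which limits the group differences of these genes.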

Other observations

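GOAT KO 1139 also stood out for genes of the ovary list and for genes of no list used here, looked at after their values were seen. *Star*, which brings cholesterol into mitochondria for steroid synthesis, had 233 CPM there and 8.13 to 31.9 CPM in the other 7 libraries. *Cyp17a1*, the androgen-making enzyme of theca cells, had 600.1 CPM in GOAT KO 1139, 355 CPM in WT 1120, 137 CPM in GOAT KO 1146 and 42.3 to 58.6 CPM in the rest. *Nr4a3*, an early response gene, had 6.93 CPM against 0.388 to 1.32. Neither *Cyp11a1*, with 442 CPM against 197 to 472, nor the luteinizing hormone receptor gene *Lhcgr*, with 37.2 CPM against 22.1 to 36.5, showed a gap of that size, and *Insl3* of theca cells had 6 reads there. WT 1120, the next library for *Star*, *Cyp17a1* and *Nr4a3*, was among the lowest for *Adipoq*, *Cfd* and *Retn*. With all 8 libraries none of the 3 genes was called between the labels (log2 fold changes of 1.89, 0.68 and 1.69 with SE of 0.95, 0.87 and 0.86, adjusted p = 0.983 each, edgeR). *Cyp17a1* was called higher without WT 1120 (1.91), *Star* without GOAT KO 1140, 1141 or 1146 or without the filter (1.88 to 2.26), and *Nr4a3* without WT 1120, GOAT KO 1140 or GOAT KO 1141 or without the filter (1.68 to 2.24).

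The genes of this paragraph were picked from those with a large gap between GOAT KO 1139 and the other libraries, and they make up no list. *Pnpla3*, a lipase of lipid droplets, had 23.4 CPM in GOAT KO 1139 and 0.329 to 1.40 elsewhere, *Ces1d*, a carboxylesterase, 23.0 against 1.18 to 2.20, and *Gpd1*, which makes glycerol phosphate and is on the list of lipid storage and release, 64.9 against 3.08 to 11.6. *Slpi*, a protease inhibitor, had 5.80 CPM against 0.058 to 0.732, and *C3*, the complement protein on which the factor D pathway acts, 184.8 CPM against 22.9 to 53.0. *Col5a3*, a fibrillar collagen gene, had 23.7 CPM against 1.42 to 2.55.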
